A study of Mus musculus with 6 samples.

Results

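Tumour necrosis factor (TNF), its receptors and the proteins that carry the receptors' signal were examined as 10 genes of cultured mouse macrophages. They were taken by symbol from the authors' deposited expression table, in which all 10 were found among 19386 genes. They comprise 2 ligands (Tnf, Tnfsf9), 5 receptors (Tnfrsf1a, Tnfrsf1b, Cd40, Fas, Tnfrsf10b), 2 receptor adaptors (Traf1, Traf2) and the TNF-induced gene Tnfaip2. The cells were bone marrow-derived macrophages, which are marrow cells cultured with medium conditioned by L929 cells until they differentiate. They came from wild-type C57BL/6 mice that had breathed room air or been exposed to cigarette smoke, and were harvested on day 11 of culture, with no further treatment named in the labels. The 2 groups hold 3 libraries each, and the question is whether macrophages grown from smoke-exposed animals differ in these genes. The age and sex of the mice and the length of the exposure are not given in the sources used here, and the labels do not say that the numbered samples of a group came from separate cultures, so the spread between them may be technical in part.

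Macrophages are a main source of TNF in the body. The protein is made as a membrane-bound trimer, is shed by a protease, and binds a widely expressed receptor with a death domain (TNFR1) or a receptor found mostly on immune and endothelial cells (TNFR2). Ligand binding gathers adaptors such as TRADD and TRAF2, which lead to NF-kappaB and kinase signalling or, in other complexes, to cell death. Many genes of the family, Tnf among them, are themselves targets of NF-kappaB.

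For expression, a group mean in size-factor-normalized counts and the authors' own comparison were used, so no value of a single library, and no spread between libraries, is known for the levels. The depth of the libraries is unknown. The table was fitted to 24 libraries, 6 of which belong here. The other 18 are not analysed here, but their mean per gene follows from the 3 deposited means. All 10 listed markers of macrophages (Csf1r, Adgre1 and others) had means of at least 348 normalized counts in both groups. The neutrophil, B cell, T and NK cell, dendritic and erythroid markers in the table stayed under 10 normalized counts in both groups, and no mast cell marker was listed. Of 5 stromal markers all were listed, with a sum of 44.0 normalized counts in room air and 11.2 after smoke and a range from 0.293 (Col3a1) to 22.5 (Col1a2), none at 0; their part in the results below was not tested.

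In the authors' deposited table none of the 10 genes passed an adjusted p of 0.05, while 7.69% of the 12082 genes with an adjusted p did. Tnf and Cd40 had the largest fold changes, both slightly above 2-fold, and both had an unadjusted p under 0.05, a level that 22.8% of all genes reached. The log2 fold change was above 0 for 9 of the 10 genes as deposited, and for 8 of them once a trend with the GC content and length of the transcripts had been taken out, since Tnfrsf1a then fell below 0. Over all genes with an adjusted p 49.7% were above 0 as deposited, and 5729 of 12071 after the trend was taken out. The median log2 fold change of the 10 genes was 0.19 as deposited and 0.14 without the trend, against -0.00285 and -0.01 over all of those genes. The 24-library mean gave the larger differences in level: for 7 of the 10 the implied mean of the other 18 libraries was at least 5-fold above room air, a limit chosen after the values were seen and met by 6.96% of all genes with an adjusted p. In bulk RNA, a change in the share of cells that make a transcript and a change in RNA per cell cannot be told apart.

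**Figure D1:**
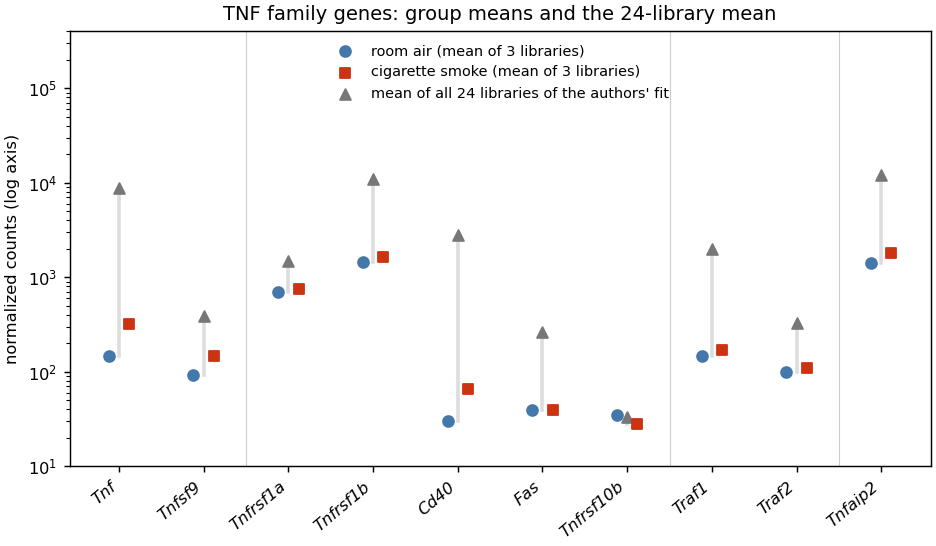
Mean normalized counts (log axis) of the 10 genes, ordered as ligands, receptors, adaptors and target, in room air (circles), after cigarette smoke (squares) and over the 24 libraries of the authors' fit (triangles). The circle and the square of a gene lie within about 2-fold of each other, and the triangle stands above both for every gene except Tnfrsf10b.

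Tnf itself, the founding ligand (chromosome 17, 35199381 to 35202007, minus strand, GRCm38), had a mean of 148 normalized counts in room air and 318 after smoke in the authors' deposited table. The authors' deposited table put its log2 fold change at 1.10 (SE 0.52), which corresponds to 2.15-fold with a 95% interval of 1.06 to 4.35-fold. The unadjusted p was 0.0343 and the adjusted p 0.177 in the authors' deposited table, so the difference did not pass the threshold. The mean over 24 libraries was 8789.6 normalized counts in the same table, 59.4 times the room air mean. In the other 18 libraries the implied mean was 11642, which is 78.7 times the level in room air and 36.6 times that after smoke.

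The 250 bases before the annotated start of Tnf are shown because Tnf had the highest 24-library level per length of the 10 genes. The stretch lies at chr17:35202008-35202257 on the minus strand (RefSeq, GRCm38.p6) and is written 5′ to 3′, with capitals for the TATA box motif TATAAA, which begins 29 bases before the start.
Tnf: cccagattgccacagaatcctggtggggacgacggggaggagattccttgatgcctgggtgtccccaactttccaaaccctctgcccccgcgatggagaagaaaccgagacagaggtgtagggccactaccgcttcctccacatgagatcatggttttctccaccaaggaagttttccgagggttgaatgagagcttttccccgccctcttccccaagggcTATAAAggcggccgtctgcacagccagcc
That motif, searched on both strands, occurred in 12.4% of 32851 promoter stretches of this length. The kappaB consensus and the AP-1 motif TGANTCA had no match in these 250 bases. A promoter was in the RefSeq table for 7 of the 10 genes, namely Tnf, Tnfrsf1a, Tnfrsf1b, Fas, Traf1, Traf2 and Tnfaip2, and not for Cd40, Tnfsf9 and Tnfrsf10b. A kappaB match was found in Tnfaip2 alone of the 7, against 7.25% of all stretches, and an AP-1 match in Fas alone, against 6.75%. The stretch lies wholly inside the GENCODE gene for Tnfrsf1a and partly for Tnfaip2, whose starts differ between the annotations. The matches are descriptions of letters and do not show binding.

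Tnfsf9 encodes the ligand of the costimulatory receptor 4-1BB (chromosome 17, 57105325 to 57107757, plus strand). Its mean was 92.1 normalized counts in room air and 148 after smoke in the authors' deposited table. The authors' deposited table put its log2 fold change at 0.67 (SE 0.40, adjusted p 0.32), with a 95% interval of 0.92 to 2.74-fold. Over 24 libraries its mean was 388 normalized counts in the authors' deposited table, 4.21 times that in room air. After Tnf and Cd40, this was the next largest fold change of the 10 genes, and its interval included no change.

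The receptors of TNF itself had intervals close to no change. Tnfrsf1a encodes the death domain receptor TNFR1 (chromosome 6, 125349362 to 125362484, plus strand) and had means of 699.5 and 753 normalized counts in room air and after smoke in the authors' deposited table. The authors' deposited table put its log2 fold change at 0.10 (SE 0.15, adjusted p 0.739), with a 95% interval of 0.88 to 1.31-fold. Tnfrsf1b encodes TNFR2 (chromosome 4, 145213463 to 145246870, minus strand), and its means were 1459.6 and 1655 in the authors' deposited table. The authors' deposited table put its log2 fold change at 0.18 (SE 0.22, adjusted p 0.683), with an interval of 0.84 to 1.54-fold. Changes of 2-fold therefore lay outside the intervals of both receptors. The ratio of the 24-library mean to room air was the smaller for Tnfrsf1a: that mean in the authors' deposited table was 1494 normalized counts for Tnfrsf1a and 10878 for Tnfrsf1b, or 2.14 and 7.45 times their room air means.

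Cd40, a costimulatory receptor that macrophages display to T cells (chromosome 2, 165055627 to 165072948, plus strand), was low in both groups. Its means were 30.1 normalized counts in room air and 65.6 after smoke in the authors' deposited table. The authors' deposited table put the log2 fold change at 1.09 (SE 0.49), or 2.13-fold with an interval of 1.10 to 4.13-fold, at an unadjusted p of 0.0257 and an adjusted p of 0.151. The 24-library mean of Cd40 was 2813 normalized counts in that deposited table, and the implied mean of the other 18 libraries was 124 times that of room air and 57.0 times that after smoke. This was the highest such ratio to room air of the 10 genes. Cd40 and Tnf had similar fold changes, neither past the adjusted threshold, and the highest ratios of the other 18 libraries to room air among the 10 genes, whereas their levels differed, with Tnf at 90.2 and Cd40 at 8.82 normalized counts per kilobase of exon in room air.

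The death receptors Fas and Tnfrsf10b had low means in both groups. For Fas (chromosome 19, 34290666 to 34327772, plus strand) the authors' deposited table gave means of 39.1 and 39.7 normalized counts and a log2 fold change of 0.13 (SE 0.20, adjusted p 0.772). The annotation places Gm27818 within Fas on the same strand, so reads of the pair cannot be told apart where they overlap. Tnfrsf10b, the mouse receptor for the death ligand TRAIL (chromosome 14, 69767472 to 69784411, plus strand), had means of 35.1 and 27.9 in the authors' deposited table. The authors' deposited table put its log2 fold change at -0.38 (SE 0.61, adjusted p 0.773), the single negative value of the 10, with a wide interval of 0.33 to 1.75-fold. The 24-library mean of the authors' deposited table was 266 normalized counts for Fas, 6.80 times room air, and 33.2 for Tnfrsf10b, 0.95 times room air.

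Among the adaptors, Traf1 is an NF-kappaB target that binds TNFR2 and CD40 complexes (chromosome 2, 34941750 to 34961772, minus strand), and Traf2 carries signals from both TNF receptors (chromosome 2, 25517982 to 25546940, minus strand). Traf1 had means of 146 and 169 normalized counts in room air and after smoke in the authors' deposited table, and a log2 fold change of 0.20 (SE 0.21, adjusted p 0.638). For Traf2 the means were 99.4 and 111, and the authors' deposited table put its log2 fold change at 0.17 (SE 0.15, adjusted p 0.555), with a 95% interval of 0.92 to 1.37-fold. Traf1 reached a 24-library mean of 1984 normalized counts in the authors' deposited table, 13.6 times room air, whereas Traf2 reached 330.03, or 3.32 times. Neither adaptor passed the threshold, and changes of 2-fold lay outside both intervals, that of Traf1 being 0.86 to 1.53-fold.

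Tnfaip2, first known as a gene that TNF induces in endothelial cells (chromosome 12, 111442469 to 111455018, plus strand), had means of 1414 and 1821 normalized counts in the authors' deposited table. The authors' deposited table put its log2 fold change at 0.37 (SE 0.29, adjusted p 0.479), with an interval of 0.87 to 1.90-fold. The 24-library mean of Tnfaip2 was 12219.65 in the authors' deposited table, 8.64 times room air. The kappaB match in its RefSeq promoter stretch, on the strand opposite to the gene, begins 24 bases before the RefSeq start at 111442661. The annotations differ here: GENCODE M21 begins the gene at 111442469, so 192 of the 250 bases searched, the match among them, lie inside the gene as GENCODE places it.

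Levels of different genes were compared per kilobase of annotated exon sequence. In room air the order, in normalized counts per kilobase from the authors' deposited means, was Tnfrsf1b at 382, Tnfaip2 at 284, Tnfrsf1a at 270.0, Tnf at 90.2, Tnfsf9 at 71.4, Traf2 at 19.5, Fas at 19.0, Traf1 at 16.6, Cd40 at 8.82 and Tnfrsf10b at 6.44. Without values per library, it cannot be said which neighbours in this order differ. After smoke, Cd40 stood at 19.2 and Fas at 19.2 normalized counts per kilobase. In the 24-library mean the order changed: Tnf came first at 5363 normalized counts per kilobase, ahead of Tnfrsf1b at 2849, Tnfaip2 at 2452 and Cd40 at 826.

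**Figure D2:**
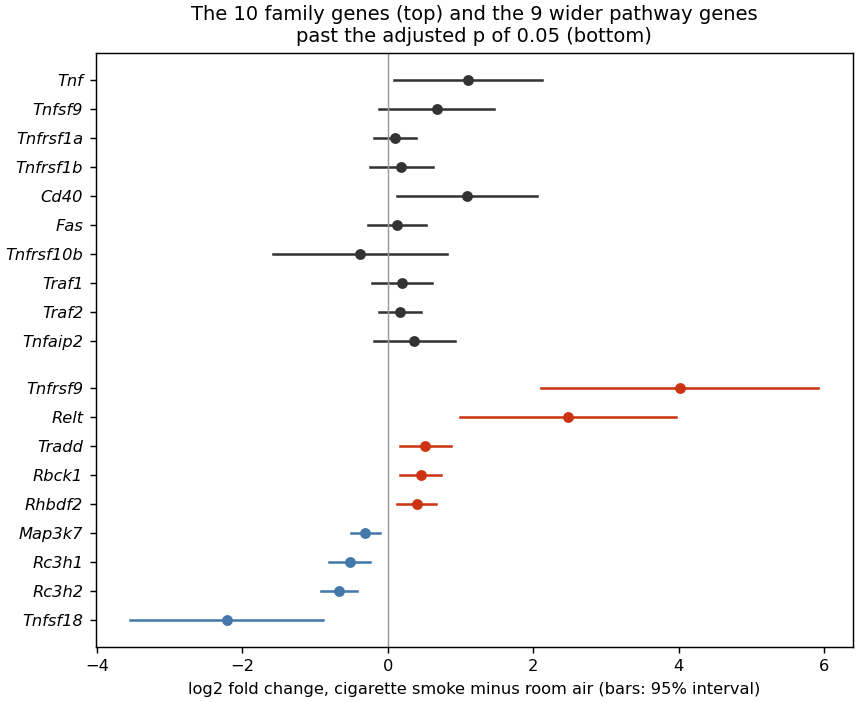
Log2 fold change, cigarette smoke minus room air, from the authors' deposited table with 95% intervals from the deposited standard errors, for the 10 genes (top) and for the 9 genes of the wider TNF pathway lists past the adjusted p of 0.05 (bottom). The intervals of Tnf and Cd40 exclude 0 before adjustment, the other 8 family genes include it, and Tnfrsf9, Relt and Tnfsf18 have the largest changes. The sign of Tnfrsf1a turned when the trend with GC content and length was removed.

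The remaining genes of the pathway were taken from 4 lists by role: 16 further ligands, 23 receptors, 32 adaptors and signalling proteins, and 15 genes that process TNF, control its mRNA or carry a TNF-induced name. Of these 86 genes 78 were in the table and 67 had an adjusted p. Of the 67, according to the authors' deposited table, 9 (13.4%) were past the threshold, 5 higher and 4 lower after smoke, beside 4.15% and 3.53% of all genes. The median log2 fold change of the 67 was 0.12 as deposited and 0.02 after removal of the trend with GC content and length. After that removal 2 of the 67 were past the threshold, against 153 genes of 12071. They were Tnfrsf9 and Elavl1, which encodes the mRNA-stabilizing protein HuR and stood at a log2 value of 0.43 (adjusted p 0.0244) without the trend, and at 0.24 (adjusted p 0.198) in the authors' deposited table.

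Among the genes of these lists past the adjusted threshold, a receptor had the largest change. Tnfrsf9, which encodes 4-1BB, the receptor of the Tnfsf9 protein (chromosome 4, 150914562 to 150946102, plus strand), rose from a mean of 1.71 to one of 26.8 normalized counts, by the authors' deposited table. The authors' deposited table put its log2 fold change at 4.01 (SE 0.97, adjusted p 0.00256), with a wide interval of 4.31 to 60.4-fold. The log2 ratio of its group means with a pseudocount of 1 was lower, at 3.35. Relt, a further receptor of the family (chromosome 7, 100845847 to 100863446, minus strand), rose from 8.96 to 48.9 normalized counts (log2 fold change 2.48, SE 0.76 and adjusted p 0.0226 by the authors' deposited table). After the trend with GC content and length was removed, the log2 fold change of Tnfrsf9 was 3.94 (adjusted p 0.0111). That of Relt was 2.26, close to the deposited value, at an adjusted p of 0.11. Of 13 receptors with an adjusted p these 2 passed, both higher. Both were low in room air, and whether every smoke library moved is not known. The listed receptors with the highest 24-library means in counts not divided by length were Tnfrsf11a (RANK) and Ltbr, the lymphotoxin beta receptor; per kilobase Ltbr was higher, at 160.1 against 99.6 normalized counts. Tnfrsf11a stood, by the authors' deposited table, at a log2 fold change of -0.34 (SE 0.12, adjusted p 0.0541), and Ltbr at one of 0.28 (SE 0.15, adjusted p 0.27).

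Of 9 further ligands with an adjusted p, 1 passed. Tnfsf18, the ligand of the receptor GITR, fell from 10.4 to 2.34 normalized counts (log2 fold change -2.21, SE 0.68 and adjusted p 0.0224 by the authors' deposited table). After removal of the trend its log2 fold change was -2.12, close to the deposited value, at an adjusted p of 0.0845. Tnfsf18 was low in both groups, with a 24-library mean of 10.4, and whether every smoke library moved is not known. The ligands with the highest 24-library means in counts not divided by length, Tnfsf10 (TRAIL) and Tnfsf8 (the CD30 ligand), had log2 fold changes of 0.44 (SE 0.26, adjusted p 0.302) and -0.50 (SE 0.45, adjusted p 0.557), by the authors' deposited table.

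Among the adaptors and signalling proteins 3 of 31 passed. Tradd, the adaptor that binds the death domain of TNFR1, rose from 51.8 to 75.1 normalized counts (log2 fold change 0.52, SE 0.18 and adjusted p 0.0463 by the authors' deposited table). Rbck1, the HOIL-1 subunit of the linear ubiquitin ligase at that receptor, rose from 271 to 373 (log2 fold change 0.45, SE 0.14 and adjusted p 0.0269 by the authors' deposited table). Map3k7, the kinase TAK1, fell from 498 to 405 (log2 fold change -0.31, SE 0.10 and adjusted p 0.0369 by the authors' deposited table). The fitted fold of Tradd, the largest of these 3 changes, was 1.43, and after removal of the trend the log2 fold changes were 0.20, 0.14 and -0.10, with adjusted p-values between 0.771 and 0.827. Adjusted over every gene with a p-value, Tradd had 0.073 and Map3k7 0.0582 and so lost the call. Tnfaip3 (A20) and Cflar (c-FLIP), brakes on NF-kappaB and on death signalling, had the highest 24-library means of this list in counts not divided by length, while per kilobase Tnip1 was higher, at 832 against 811 and 478 normalized counts. They had log2 fold changes of 0.73 (SE 0.36, adjusted p 0.194) and -0.22 (SE 0.14, adjusted p 0.354), by the authors' deposited table.

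Of the 14 genes with an adjusted p that process TNF, control its mRNA or carry a TNF-induced name, 3 passed. Rhbdf2 encodes iRhom2, the partner of the protease ADAM17 that sheds TNF, and rose from 252 to 331 normalized counts (log2 fold change 0.40, SE 0.14 and adjusted p 0.0456 by the authors' deposited table). Its adjusted p was 0.072 over every gene with a p-value and 0.573 after removal of the trend, at a log2 fold change of 0.22. The Roquin genes Rc3h1 and Rc3h2, whose proteins promote decay of mRNAs including that of TNF, both fell: Rc3h1 from 532 to 367 (log2 fold change -0.52, SE 0.14, adjusted p 0.0091) and Rc3h2 from 389 to 240.3 (log2 fold change -0.67, SE 0.13, adjusted p 8.31e-05), by the authors' deposited table. Other genes of the annotation lie within both Roquin genes on their strand, so part of their reads is uncertain. Their transcripts are long and low in GC, with 41.7% and 38.8% GC, and once the trend was removed the log2 fold changes were -0.12 and -0.25, with adjusted p-values of 0.862 and 0.466. Zfp36 (tristetraprolin) and Adam17, with the highest 24-library means of the list in counts not divided by length, had log2 fold changes of 0.20 (SE 0.30, adjusted p 0.75) and -0.13 (SE 0.15, adjusted p 0.684), by the authors' deposited table.

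**Figure D3:**
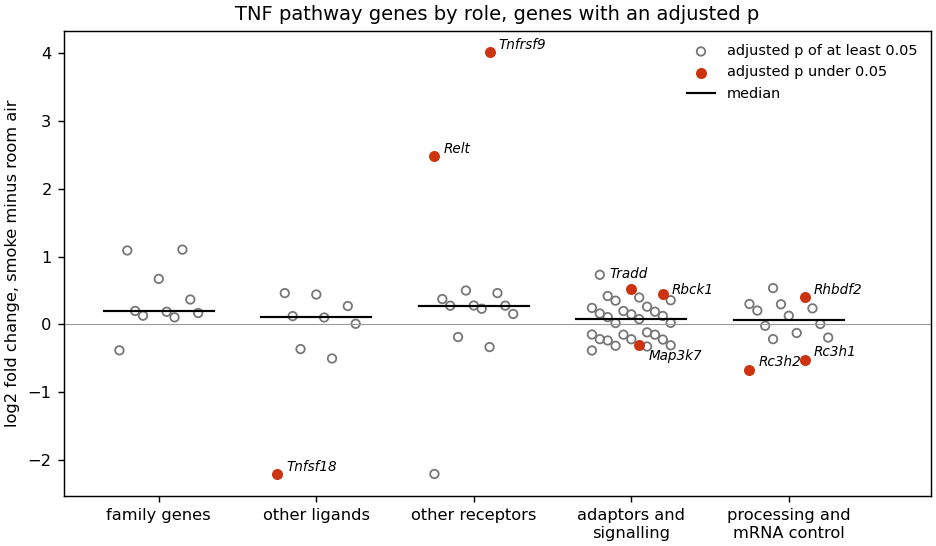
Log2 fold change, cigarette smoke minus room air, in the authors' deposited table for each gene with an adjusted p, by role; filled points passed an adjusted p of 0.05 and bars are medians. All 10 family genes are open points with a median of 0.19, while filled points appear in each of the other 4 lists. Tnfrsf9 is the highest at 4.01 and Tnfsf18 the lowest filled point at -2.21, beside an open receptor point (Eda2r) at -2.21. Among the family genes, removal of the trend with GC content and length turned the sign of Tnfrsf1a alone. Genes above 0 went from 6 to 4 in the ligands, 10 to 7 in the receptors and 8 to 6 in processing and mRNA control. In the adaptors they numbered 18 both times.

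The genes whose deposited means were most like those of Tnf were found by the distance over 2 log2 ratios, smoke over room air and room air over the 24-library mean, among 9023 other genes with a 24-library mean of at least 50. The nearest was Pdpn (podoplanin) at a distance of 0.0881, with means of 13.6 normalized counts in room air, 27.6 after smoke and 823 over 24 libraries in the authors' deposited table. It was followed by RP23-52N2.1 (0.231), the interferon-inducible GTPase gene Iigp1 (0.232), Ifit1bl1 (0.332) and the scavenger receptor gene Marco (0.362). None of the 5 passed the adjusted threshold, with adjusted p-values from 0.142 to 0.477 in the authors' deposited table. The likeness rests on 3 means per gene, and 4 of the 5 had both group means under 50, so they entered the search through the other 18 libraries, whose mean the distance also uses.

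Splicing was the one measure with a value per library. JuncBASE, a program that sorts splicing events by their junction reads and gives the percent inclusion of each, listed 11 events within 5 of the 10 genes (Tnf, Tnfsf9, Tnfrsf1a, Traf1, Tnfaip2) and none within the other 5. None of the 11 passed an adjusted p of 0.05 in limma, where 0 (0.0%) of all 10376 events did, and 1 had an unadjusted p under 0.05, which 10.8% of all events had. The adjusted p-values of the 11 ran from 0.458 to 0.806, and the corrected p-values of the authors' deposited table from 0.664 to 1. How many reads lie behind each level is unknown. In 2 of the 11 the values of the groups did not overlap, as in 22.8% of all events. Room air replicate 1 and cigarette smoke replicate 1 lacked a value in 398 and 4169 of all events.

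Tnf has 3 introns, and all had a retention level in each library. Retention of intron 2 (chromosome 17, 35200906 to 35201083) was 8.33%, 8.70% and 8.57% in the room air libraries (replicates 1, 2 and 3, an order kept from here on), and 0%, 5.00% and 3.03% in the smoke libraries. All smoke values lay below all room air values, with means of 8.53% ± 0.188 and 2.68% ± 2.52 (SD, n = 3 each). In limma the unadjusted p was 0.0489 and the adjusted p 0.458, while the raw p of the authors' deposited table was 0.496. Intron 1 (35201139 to 35201654) was retained at 0%, 4.55% and 11.4% in room air and at 6.25%, 6.90% and 3.12% after smoke, so the groups overlapped. For intron 3 (35200564 to 35200857) the levels were 0%, 0% and 16.7% in room air and 4.55%, 10.3% and 2.22% after smoke, and the groups again overlapped. Over the 3 introns the mean level was 6.47% ± 5.05 in room air and 4.60% ± 2.47 after smoke (SD, n = 3 each), a difference of -1.87 percentage points that lay within the spread of the libraries and turned to 1.00 without room air replicate 3. Over the 1992 retained introns of all genes with a value in each library the means were 15.7% and 11.4%, a difference of -4.23 points. An alternative donor within intron 1, which lengthens the first exon by 205 bases, was used at 6.25% to 16.2% in room air and at 6.06% to 10.0% after smoke.

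In Tnfaip2 an alternative acceptor event (chromosome 12, exclusion junction 111448640 to 111448739) had inclusion levels of 91.7%, 92.4% and 92.8% in room air and 97.7%, 97.9% and 93.8% after smoke. Each smoke value was above each room air value, with means of 92.3% ± 0.560 and 96.5% ± 2.31 (SD, n = 3 each), at an adjusted p of 0.479 in limma. Without cigarette smoke replicate 3, whose value was the closest to room air, the adjusted p was 0.0341 in limma, and 1064 of all events passed without that library. The other Tnfaip2 event, an acceptor shift of 25 bases, stayed between 0% and 5.56% in all libraries. A donor shift of 22 bases in Tnfrsf1a stayed between 93.3% and 100%, and one of 29 bases in Traf1 was at 0% in every library with a value except cigarette smoke replicate 3, at 5.41%.

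Tnfsf9 is built of 3 exons, and the short second one (chromosome 17, 57106250 to 57106286, plus strand) is the cassette exon of a JuncBASE event. It is 37 bases long and wholly coding, and its length is not a multiple of 3, so skipping it shifts the reading frame. It is shown with 15 bases of each neighbouring exon as joined in the GENCODE M21 transcript, 5′ to 3′, with exon 2 in capitals, since both programs reported on its surroundings.
Tnfsf9 exon 2: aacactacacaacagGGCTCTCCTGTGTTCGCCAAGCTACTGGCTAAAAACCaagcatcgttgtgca
Inclusion of the exon was 100% in both room air libraries with a value (replicate 1 had none), and 90.0%, 100% and 94.4% in the smoke libraries. The groups shared the value of 100%, and the adjusted p was 0.524 in limma. Retention of the intron after the exon (57106287 to 57107040) was 0% and 10.0% in room air and 7.14% and 5.88% after smoke, each time replicates 2 and 3, with no value in either replicate 1. The third event, an acceptor shift of 3 bases, had levels of 100% in 3 of the 4 libraries with a value and 94.1% in cigarette smoke replicate 3.

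**Figure D4:**
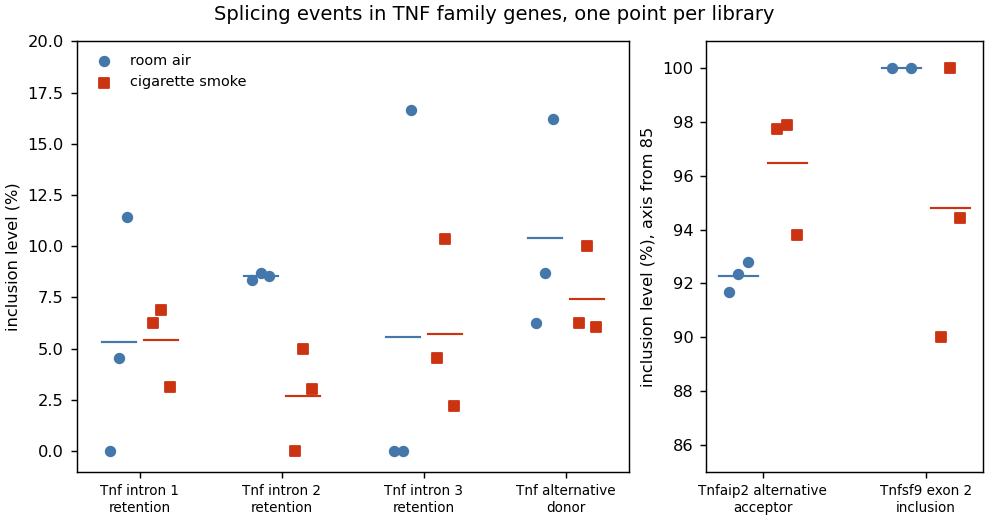
Inclusion level (%) of 6 JuncBASE events, one point per library, room air as circles and cigarette smoke as squares, with bars at group means; the right panel has its own axis, from 85%. In Tnf intron 2 and at the Tnfaip2 acceptor the groups do not overlap, and in the other 4 events they do.

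The authors' deposited rMATS table, which tests intron retention on reads over junctions and within introns, listed 5 introns in 4 of the 10 genes. Its differences are set 1 minus set 2, and the sets are not named, so no direction between smoke and room air is given here. Of the 5, 1 had a false discovery rate under 0.05, beside 14.5% of all 3887 introns in the authors' deposited table. That one lay in Tnfsf9 (chromosome 17, 57105861 to 57107040), where the authors' deposited table gave a difference of 45.8 percentage points (false discovery rate 0.00147). Of the 565 introns past the threshold 7 had a larger difference, and 537 were higher in set 1, as the Tnfsf9 interval was. The interval is not an intron of GENCODE M21: it runs from the end of exon 1 to the start of exon 3 and so holds exon 2 and both annotated introns. Which reads gave this difference was not tested, and the JuncBASE means for inclusion of exon 2 differed by -5.19 points (smoke minus room air). In Tnf, an interval 3 bases longer than intron 1 (35201136 to 35201654) differed by 22.9 points (false discovery rate 0.323, the authors' deposited table). In that table the 2 introns of Tnfaip2 differed by 1.7 and 4.2 points (false discovery rates 0.292 and 1) and the intron of Traf2 by 0.4 points (false discovery rate 1).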

How the data were processed

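The 6 libraries were made from total RNA with a directional kit, per the labels' protocols. Whether RNA was poly(A) selected, the counting program and the filters are not given in the sources used here. STAR, DESeq2, SAMtools 1.9 and bedtools 2.27.1 and the build mm10 are named in the submitters' processing notes without a role. The authors deposited group means as a signal in size-factor-normalized counts. With them came log2 fold changes, standard errors, a test statistic, p-values and adjusted p-values, per the file headers. The fold changes are headed log2FcMAP, and whether they were moderated by a prior is not given in the sources used here. Standard errors rest on all 24 libraries of their fit. The authors' deposited table leaves the adjusted p of 7291 genes with a p-value blank, all with a 24-library mean of at most 8.52. JuncBASE levels were deposited by the authors in percent per library, and rMATS differences as a signed score with p-values; 6 per-sample columns of the rMATS table were not used, since its sets are not named.

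The mean of the other 18 libraries was computed as 24 times the overall mean minus 3 times each group mean, divided by 18, and was never below 0 beyond rounding. Intervals are 95% normal intervals from the deposited standard errors. Overlaps with other genes were looked up on the same strand; whether reads were counted by strand is not given in the sources used here. A trend in GC content and log2 length of the longest transcript (GENCODE M21, GRCm38, found for 99.9% of genes) was removed by weighted least squares with splines of 4 degrees of freedom in statsmodels 0.14.6 with patsy 1.0.2; each residual over its deposited standard error gave a new p-value. Levels p of the JuncBASE events were turned into log2((p + 1)/(100 - p + 1)) and fitted with limma 3.58.1 in R 4.3.3 over all events with at least 2 values in each group. The p-values computed here were adjusted by Benjamini-Hochberg, over the 10376 events fitted in limma and over the 12071 genes of the trend fit. The deposited adjusted p-values cover 12082 genes. Adjustment over all 19373 genes with a p-value was run as an alternative. Both procedures were also run on simulated data, with outcomes not given here. How small a change limma can call with 3 libraries per group is therefore not stated, and events that did not pass may still differ. No counts per library were used, so expression rests on the authors' comparison. Ensembl versions of 8 of the 10 genes matched GENCODE M21.

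The genes and lists were chosen with earlier results of these data known. Named are all 10 genes, every gene of the wider lists past the adjusted p of 0.05, the 2 genes of each list with the highest 24-library mean, not divided by length, the 5 genes nearest to Tnf, and all events and introns within the 10 genes, the 3 with the largest differences by library. Outside this rule Elavl1, Tnip1, Eda2r, Tnfsf15, Lta and Ltb are named, chosen after their values were seen. Alternatives were other thresholds, filters and adjustments, the removal of the trend, other pseudocounts, a replicate block and leaving out each library.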

Additional observations from a re-analysis of the deposited data

How the results depend on the processing

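None of the 10 genes passed the threshold in expression under the 6 alternatives run. These included an adjusted p of 0.01 and at least 2-fold, which by construction could call no gene that had not passed before. The others were an adjusted p of 0.1, a mean of at least 50 normalized counts and adjustment over every gene with a p-value. The last was removal of the trend with GC content and length. Tnfrsf10b was not tested under the filter on means. Of the 10 genes, 2 had an unadjusted p under 0.05 in the authors' deposited table. Of these alternatives only removal of the trend could change the direction of a fold change. It turned Tnfrsf1a alone of the 10, to -0.14, and the cause was not tested. The log2 ratio of group means with a pseudocount of 1 kept the direction of all 10. From 929 in all and 9 of the wider lists, the counts of genes became 366 and 3 at an adjusted p of 0.01, 153 and 2 without the trend, and 157 and 3 at 2-fold, all by construction fewer except for the trend, whose cause was not tested; at 0.1 the count in all was 1547. Under the filter on means 8 of the 59 genes left of the wider lists passed, Relt and Tnfsf18 not being tested. The rMATS count of 565 became 302 at a false discovery rate of 0.01 and 172 at a difference of at least 10 points, while the Tnfsf9 interval passed under both. JuncBASE events past the threshold in limma numbered 0 of 10376, with 1125 at an unadjusted p under 0.05. When a value in all 6 libraries was required, 23 of 5933 passed, none of them among the 7 tested in the 10 genes. When a library was left out, between 0 and 1064 of all events passed, and between 0 and 1 in the 10 genes. The upper values came without cigarette smoke replicate 3, where 9 events of the 10 genes were tested, against 11 in the other such fits. Dropping the minimum number of libraries, an alternative chosen after seeing the data, left the same 10376 events and hence the same fit. In some of the fits without a library 1 library stood for a group and was assumed to vary like the others. The retention difference over the 3 Tnf introns ran from -3.72 to 1.00 points when a library was left out, and no intron with a mean of at least 10% was left to test. With the replicate number as a block, 0 events passed and 800 had an unadjusted p under 0.05. Deviations of same-numbered libraries correlated at 0.00775, -0.0553 and -0.109, so the numbers were not read as pairing. No paired analysis was possible for expression because the values are group means. The depth of the libraries is unknown.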

Other observations

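Of the 67 genes of the wider lists with an adjusted p, 14 had an implied mean in the other 18 libraries at least 5-fold above room air, as did 6.96% of all genes with an adjusted p. The 4 highest of the 14 were Tnfaip3 at 91.8 times room air, the ligands Tnfsf10 and Tnfsf15 at 58.9 and 44.4, and Tnfrsf9 at 43.8. Tnfrsf9 was the gene of the 14 with the largest smoke difference, whereas Relt, the other receptor that passed, had an implied mean of 7.01 normalized counts in the other 18 libraries, below both its room air mean of 8.96 and its smoke mean of 48.9. Beside Tnf on chromosome 17, its neighbours Lta and Ltb were nearly absent: Lta had means of 0.122 and 0.411 normalized counts and Ltb of 0.329 and 3.51 in the authors' deposited table, both without an adjusted p.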
